A study of Gallus gallus with 24 samples.

Results

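The 5 genes described are G0S2, PLIN2, PNPLA3, ABHD6 and ANGPTL4, which encode proteins of the lipid droplet surface and of triglyceride breakdown. They were taken by gene symbol from a table of 20780 genes, each symbol standing on 1 identifier (G0S2 ENSGALG00000023933, PLIN2 ENSGALG00000015090, PNPLA3 ENSGALG00000029308, ABHD6 ENSGALG00000005696 and ANGPTL4 ENSGALG00000000619). Their levels were compared across 2 muscles and 3 diets of Guangyuan Grey hens, a Chinese chicken breed. SHFD hens had a high-fat diet for 15 days, LHFD hens had it for 60 days, and CONT hens had the normal diet. All were killed at 210 days of age after 12 h of fasting, from 270 hens that entered the experiment at 150 days. The soleus (SOL), a leg muscle with oxidative and glycolytic fibres, and the pectoralis major (PEM), the fast glycolytic breast muscle, came from the same 9 birds selected per diet. Each of the 6 groups (SHFD_SOL, LHFD_SOL, CONT_SOL, SHFD_PEM, LHFD_PEM and CONT_PEM) held 4 libraries of total muscle RNA, called biological replicates in the labels, 24 in all. No label used here ties a library to a bird, and p-values therefore cover the spread among these libraries alone.

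Fat inside a muscle fibre is stored as triglyceride in droplets whose surface proteins govern access of lipases. In mammals PNPLA2 (adipose triglyceride lipase) makes the first cut, further lipases release the second fatty acid, and monoacylglycerol lipases such as MGLL and ABHD6 remove the last. G0S2 binds and inhibits PNPLA2, perilipins such as PLIN2 coat the droplet and shield it, and ANGPTL4 is secreted and inhibits lipoprotein lipase, the enzyme that frees fatty acids from circulating lipoproteins. PLIN2 and ANGPTL4 are also known targets of the fatty acid sensing PPAR receptors.

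Values are FPKM, fragments scaled to transcript length and to mapped reads, which allows levels of different genes to be set side by side. Sequencing depth is unknown. Fold changes are differences of log2(FPKM + 1), a scale that understates changes of low genes, and genes with an adjusted p below 0.05 count as called (limma, Benjamini-Hochberg over 10944 tested genes). Testing required 1 FPKM or more in 4 or more libraries. All 5 genes passed that filter, G0S2, PLIN2 and PNPLA3 with 1 FPKM or more in 24 libraries, ABHD6 in 18 and ANGPTL4 in 5. In whole muscle, fewer cells of a type and less RNA per cell cannot be told apart.

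The muscles matched their labels. The slow myosin gene MYH7B lay at 714 to 8699 FPKM in SOL libraries and at 0.0637 to 7.68 FPKM in PEM libraries, and the fast myosin gene MYH1E at 60.1 to 441 FPKM in SOL and 8908 to 13620 FPKM in PEM. Transcripts of the 13 mitochondrial genes held 20.6% to 27.0% of the FPKM in SOL and 10.4% to 17.3% in PEM. Of 10 adipocyte markers 7 were found by symbol, and their summed level was 84.7 to 184 FPKM in SOL and 21.7 to 109 FPKM in PEM. CONT_PEM 2, the library numbered 2 of its group, had the lowest mean correlation with its own group (0.943, against 0.959 to 0.981 elsewhere). Its 9 macrophage markers found (of 11) summed to 586 FPKM, against 111 to 142 FPKM in the other 3 CONT_PEM libraries, and its 5 heterophil markers (of 6) to 58.1 FPKM against 7.04 to 9.55 FPKM. LHFD_PEM 1 stood out in the same lists, at 368 FPKM for macrophages and 34.7 FPKM for heterophils, against 107 to 157 FPKM and 6.12 to 15.9 FPKM in the other 3 LHFD_PEM libraries. Lymphocyte markers (7 found of 9) were also high in both, at 26.8 FPKM in LHFD_PEM 1 against 6.21 to 8.20 FPKM in the rest of its group, and at 44.8 FPKM in CONT_PEM 2 against 7.86 to 10.1 FPKM. So were the 7 fibroblast markers, at 272 FPKM against 47.5 to 126 FPKM and at 192 FPKM against 48.5 to 90.5 FPKM. Adipocyte markers stood apart in CONT_PEM 2 (109 FPKM against 21.7 to 26.4 FPKM), and slow fibre markers in LHFD_PEM 1 (182 FPKM against 27.8 to 48.0 FPKM). In both, CSF1R and CSF3R, defining genes of those cells, were at their group's maximum (9.15 and 5.71 FPKM in LHFD_PEM, 15.6 and 21.9 FPKM in CONT_PEM). Fibre markers set SHFD_SOL 4 apart, with slow ones at 38760 FPKM against 13790 to 17240 FPKM in the rest of its group. Its fast ones summed to 4384 FPKM against 18060 to 22100 FPKM. Smooth muscle and pericyte markers summed to 1023 FPKM in SHFD_SOL 1 and 528 FPKM in SHFD_SOL 3, against 245 FPKM in SHFD_SOL 2 and 324 FPKM in SHFD_SOL 4. Their defining genes ACTA2, MYH11 and PDGFRB reached at most 5.77, 5.13 and 6.36 FPKM in SHFD_SOL. LHFD_SOL 4 held 25920 FPKM of slow fibre markers, against 10620 to 12330 FPKM in the rest of its group.

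**Figure D1:**
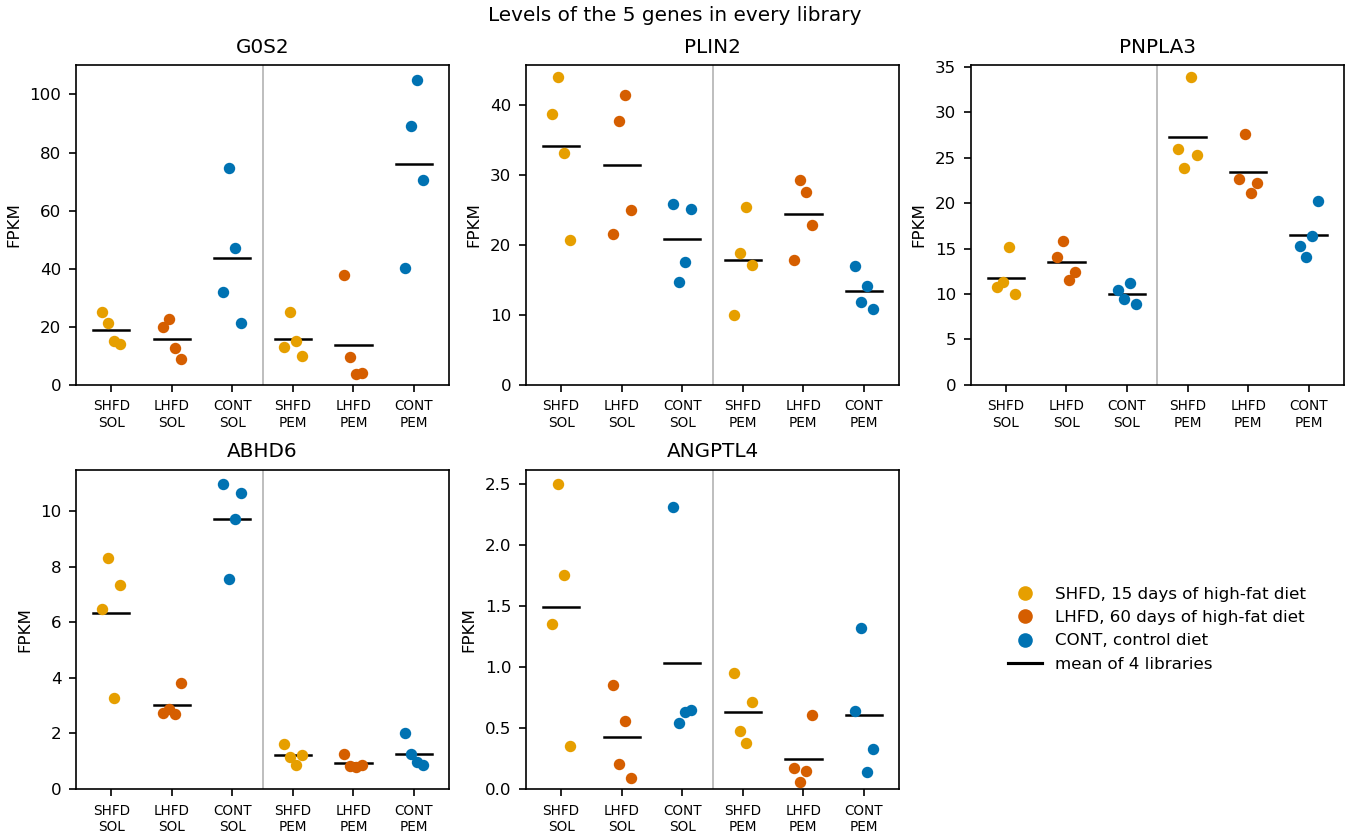
FPKM of G0S2, PLIN2, PNPLA3, ABHD6 and ANGPTL4 (vertical axes, linear, from 0) in each of 24 libraries, by muscle and diet. Points are libraries and bars are means of 4. G0S2 averages 15.8 FPKM in SHFD_PEM, 13.7 in LHFD_PEM and 76.2 in CONT_PEM, and ABHD6 averages 3.03 FPKM in LHFD_SOL and 9.73 in CONT_SOL.

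In the breast muscle, the high-fat diets went with less of the lipase inhibitor G0S2 and more PNPLA3. G0S2 fell in both SHFD and LHFD hens, while PNPLA3, a patatin-like acyl hydrolase related to PNPLA2 that in mammals is known for lipid remodelling in liver, rose in both. The gene given the symbol PNPLA3 carries a KEGG annotation of PNPLA2, so the identity of that gene is not certain. The SHFD and LHFD comparisons use the same 4 CONT_PEM libraries, so their results are not independent. Under SHFD, 2 of the 5 genes were called, where 1.07% of all tested genes were called. Under LHFD, 2 of 5 were called, where 6.94% of all tested genes were. Both counts stand above those shares, but the genes were chosen with earlier results of these data known.

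G0S2 stood at 12.8, 25.2, 15.2 and 10.0 FPKM in the SHFD_PEM libraries, against 40.2, 89.2, 105 and 70.4 FPKM in the CONT_PEM libraries. Every SHFD_PEM library lay below every CONT_PEM library. The log2 fold change was -2.19 (SE 0.51, 95% interval -3.25 to -1.13, limma adjusted p = 0.0359), and the mean was 0.208 times that of CONT. This call rests on few libraries. It ended when SHFD_PEM 1, 3 or 4 or CONT_PEM 2, 3 or 4 was left out (adjusted p 0.0559 to 0.110), with no filter (adjusted p = 0.0824) and when only SHFD_PEM and CONT_PEM were fitted (adjusted p = 0.1496), and it held in 5 of the 7 settings run. In the leave-one-out fits of this comparison the log2 fold change itself stayed between -2.47 and -2.01.

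In LHFD_PEM, G0S2 stood at 37.8, 9.45, 3.65 and 4.03 FPKM, against the same 40.2 to 105 FPKM in CONT_PEM. LHFD_PEM 1, the library rich in macrophage, heterophil, lymphocyte, fibroblast and slow fibre markers, held at least 4 times the G0S2 of any other library of its group and came close to the lowest CONT_PEM library without reaching it. The log2 fold change was -2.88 (SE 0.51, 95% interval -3.94 to -1.83, limma adjusted p = 0.00258). Without LHFD_PEM 1 it was -3.54, without CONT_PEM 2 it was -2.78, and without both it was -3.44 (adjusted p = 0.000289). The call held in all 8 leave-one-out fits (adjusted p 0.000315 to 0.0105) but not with only LHFD_PEM and CONT_PEM in the fit (adjusted p = 0.0842). Against SHFD_PEM, LHFD_PEM had a G0S2 log2 fold change of -0.69 (95% interval -1.75 to 0.37), and the ranges overlapped.

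PNPLA3 stood at 26.0, 23.9, 33.9 and 25.4 FPKM in SHFD_PEM, against 15.3, 14.1, 16.4 and 20.3 FPKM in CONT_PEM. In LHFD_PEM it stood at 22.6, 27.7, 21.2 and 22.2 FPKM. All 8 high-fat PEM libraries were above all 4 CONT_PEM libraries, the closest being LHFD_PEM 3 and CONT_PEM 4. The log2 fold change was 0.69 (SE 0.14, limma adjusted p = 0.0167) for SHFD and 0.48 (SE 0.14, limma adjusted p = 0.0406) for LHFD. The SHFD call ended without SHFD_PEM 3 (adjusted p = 0.0815) or CONT_PEM 1 (adjusted p = 0.0526) and with only the groups compared (adjusted p = 0.222). The LHFD call rests on few libraries: it ended without LHFD_PEM 1, 2 or 4 or CONT_PEM 1, 2 or 3 (adjusted p 0.0599 to 0.144). It held in 3 of the 7 settings run. It ended with no filter (adjusted p = 0.0627), with both LHFD_PEM 1 and CONT_PEM 2 left out (adjusted p = 0.127) and with only the groups compared (adjusted p = 0.130). The call also ended with the replicate number as a block.

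The droplet coat gene PLIN2 stood at 17.9, 29.3, 27.6 and 22.9 FPKM in LHFD_PEM, against 17.0, 11.8, 14.2 and 10.9 FPKM in CONT_PEM. The groups did not overlap, yet the log2 fold change of 0.81 (SE 0.27) missed the threshold (limma adjusted p = 0.0738). In SHFD_PEM, PLIN2 ranged from 9.93 to 25.5 FPKM and overlapped CONT_PEM, with a log2 fold change of 0.33 (95% interval -0.23 to 0.89). Counting genes whose groups did not overlap in PEM gave 2 of 5 under SHFD (5.88% of all tested genes) and 3 of 5 under LHFD (11.8% of all tested genes).

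ABHD6 and ANGPTL4 were low in PEM and were not called there. ABHD6 averaged 1.22 ± 0.30 FPKM in SHFD_PEM, 0.935 ± 0.22 in LHFD_PEM and 1.27 ± 0.53 in CONT_PEM (SD, n = 4 each). Its 95% intervals of the log2 fold change were -0.43 to 0.39 for SHFD against CONT and -0.62 to 0.19 for LHFD against CONT. ANGPTL4 ranged from 0.377 to 0.955 FPKM in SHFD_PEM, 0.0603 to 0.611 in LHFD_PEM and 0.136 to 1.32 in CONT_PEM. At such levels the log2(FPKM + 1) scale leaves little room for a fold change, and the intervals were -0.52 to 0.64 and -0.91 to 0.25 for SHFD and LHFD against CONT. None of the 5 genes was called between LHFD and SHFD in PEM, where 0.201% of all tested genes were.

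In the soleus, the gene of the 5 that was called between diets was ABHD6, a membrane-bound hydrolase of monoacylglycerols including the endocannabinoid 2-arachidonoylglycerol. It fell to 2.75, 2.87, 2.70 and 3.81 FPKM in LHFD_SOL, against 10.99, 7.55, 9.74 and 10.6 FPKM in CONT_SOL. Every LHFD_SOL library lay below every CONT_SOL library. The log2 fold change was -1.41 (SE 0.20, 95% interval -1.81 to -1.003, limma adjusted p = 0.00054), the 7th smallest p of all genes tested. It was the single call among the 5 genes, where 0.521% of all tested genes were called. The call held in all 8 leave-one-out fits (adjusted p 0.000521 to 0.00481) and in the other 6 settings run (adjusted p 0.000288 to 0.00499). Slow fibre markers summed to 11450, 12330, 10620 and 25920 FPKM in LHFD_SOL, against 15630, 17010, 25450 and 18340 FPKM in CONT_SOL. None of these 8 markers was called between those groups, and their part in the ABHD6 difference was not tested.

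In SHFD_SOL, ABHD6 stood at 6.48, 8.30, 3.26 and 7.35 FPKM, between LHFD_SOL and CONT_SOL on average. SHFD_SOL 3 was the low library, and the range overlapped those of both other diets. SHFD against CONT gave a log2 fold change of -0.59 (SE 0.20, limma adjusted p = 0.130). LHFD against SHFD gave -0.81 (SE 0.20, limma adjusted p = 0.0481), the single call of 5 where 0.886% of all tested genes were called. The last call ended without LHFD_SOL 1, 2 or 3 or SHFD_SOL 1, 2 or 4 (adjusted p 0.0868 to 0.153). It held in 2 of the 6 settings run, and ended with an equal nuclear-encoded sum (adjusted p = 0.0518), a pseudocount of 0.1 (adjusted p = 0.103), no filter (adjusted p = 0.0973) and only the groups compared (adjusted p = 0.218).

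G0S2 in the soleus stood at 24.9, 21.3, 15.0 and 14.1 FPKM in SHFD_SOL and at 19.8, 22.5, 12.5 and 8.71 FPKM in LHFD_SOL. CONT_SOL held 32.0, 74.8, 47.1 and 21.4 FPKM. CONT_SOL 4 was the one control library within the range of the high-fat libraries. The log2 fold change was -1.07 (95% interval -2.13 to -0.0094, limma adjusted p = 0.307) for SHFD and -1.35 (95% interval -2.41 to -0.29, limma adjusted p = 0.267) for LHFD, so neither was called.

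PLIN2 in the soleus stood at 38.7, 44.0, 33.2 and 20.8 FPKM in SHFD_SOL and at 21.5, 37.7, 41.4 and 25.01 FPKM in LHFD_SOL. CONT_SOL held 25.9, 14.7, 17.6 and 25.1 FPKM. Of the 8 high-fat SOL libraries 5 exceeded every CONT_SOL library, but the ranges overlapped. Log2 fold changes were 0.68 for SHFD (SE 0.27, limma adjusted p = 0.208) and 0.56 for LHFD (SE 0.27, limma adjusted p = 0.419). Without SHFD_SOL 4, the library set apart by its fibre markers, the SHFD value was 0.89 and was not called.

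PNPLA3 in the soleus stood at 14.0, 15.8, 11.6 and 12.4 FPKM in LHFD_SOL, against 10.5, 9.47, 11.2 and 8.90 FPKM in CONT_SOL. These groups did not overlap, and the log2 fold change was 0.39 (SE 0.14, limma adjusted p = 0.244). SHFD_SOL ranged from 9.95 to 15.2 FPKM, with a log2 fold change of 0.20 (95% interval -0.09 to 0.50). ABHD6 and PNPLA3 were thus 2 of 5 genes whose LHFD_SOL and CONT_SOL libraries did not overlap, against 10.9% of all tested genes.

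ANGPTL4 was low in the soleus too. It stood at 1.36, 2.5, 1.76 and 0.352 FPKM in SHFD_SOL, at 0.856, 0.202, 0.559 and 0.0867 FPKM in LHFD_SOL, and at 2.31, 0.537, 0.635 and 0.648 FPKM in CONT_SOL. SHFD_SOL held 3 of the 5 libraries at 1 FPKM or more, the others being CONT_SOL 1 and CONT_PEM 2. The log2 fold change of LHFD against SHFD was -0.76 (95% interval -1.34 to -0.18, limma adjusted p = 0.259). None of the 5 genes was called in SHFD against CONT in SOL, where 0.557% of all tested genes were.

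**Figure D2:**
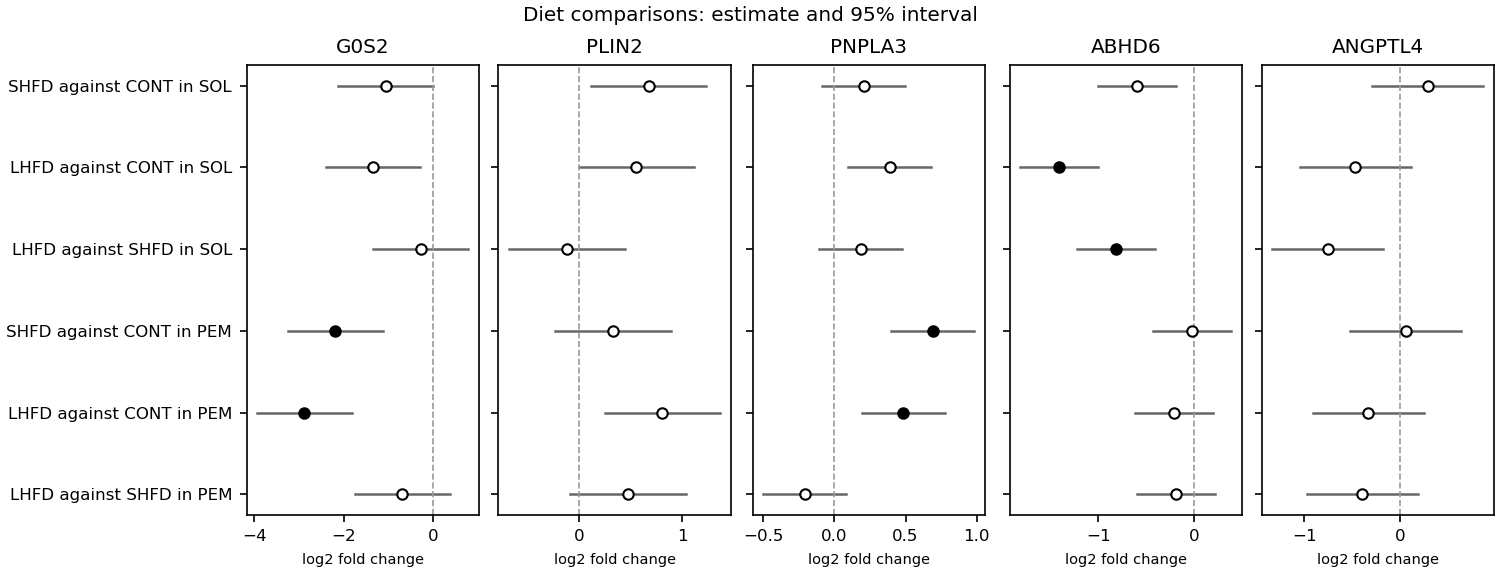
Log2 fold change (horizontal axes, log2(FPKM + 1) scale) of each gene in 6 diet comparisons (rows). Points are estimates from the fit over 24 libraries, lines are 95% intervals, and filled points passed an adjusted p of 0.05. Filled points are G0S2 and PNPLA3 under both high-fat diets in PEM, and ABHD6 in LHFD against CONT and against SHFD in SOL.

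No gene's diet effect was shown to differ between the muscles. SOL and PEM libraries, which may come from the same birds, entered these tests as separate samples, since no label pairs them. The LHFD effect on ABHD6 in SOL minus that in PEM was -1.20 (SE 0.28, unadjusted p = 0.00028, limma adjusted p = 0.268), the 11th smallest p of all genes tested. ABHD6 averaged 1.27 FPKM in CONT_PEM, where the log2(FPKM + 1) scale leaves little room for a fall. As ratios of mean FPKM, which do not carry that limit, LHFD over CONT was 0.734 in PEM and 0.312 in SOL. How far the limit of the scale enters the fitted difference was not tested. The LHFD effect on G0S2 was 1.53 higher in SOL than in PEM (95% interval 0.04 to 3.03, limma adjusted p = 0.849). For SHFD the largest of these differences in size was that of G0S2 at 1.12 (95% interval -0.37 to 2.62, limma adjusted p = 0.874). PNPLA3 gave -0.49 (95% interval -0.90 to -0.07, limma adjusted p = 0.661). ABHD6 gave -0.57 (95% interval -1.15 to 0.0003, limma adjusted p = 0.780). At this threshold 0.00914% of all tested genes were called for the SHFD difference and 0.0% for the LHFD difference.

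The muscles themselves differed in ABHD6 and PNPLA3 under every diet, in opposite directions. Here too the libraries were fitted unpaired, so the p-values take no account of any muscles from the same bird. ABHD6 averaged 6.35 ± 2.19 FPKM in SHFD_SOL and 1.22 ± 0.30 in SHFD_PEM, 3.03 ± 0.52 in LHFD_SOL and 0.935 ± 0.22 in LHFD_PEM, and 9.73 ± 1.55 in CONT_SOL and 1.27 ± 0.53 in CONT_PEM (SD, n = 4 each). Every SOL library was above every PEM library. The log2 fold changes were 1.68 for SHFD (limma adjusted p = 5.02e-07), 1.06 for LHFD (limma adjusted p = 0.000175) and 2.25 for CONT (limma adjusted p = 6.96e-09).

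PNPLA3 averaged 11.8 ± 2.3 FPKM in SHFD_SOL and 27.3 ± 4.5 in SHFD_PEM, 13.5 ± 1.9 in LHFD_SOL and 23.4 ± 2.9 in LHFD_PEM, and 10.0 ± 1.0 in CONT_SOL and 16.5 ± 2.7 in CONT_PEM (SD, n = 4 each). Within each diet the muscles did not overlap, so ABHD6 and PNPLA3 made 2 of 5 genes without overlap under each diet, against 44.3% (SHFD), 41.9% (LHFD) and 43.9% (CONT) of all tested genes. Log2 fold changes were -1.15 for SHFD (limma adjusted p = 9.81e-07), -0.76 for LHFD (limma adjusted p = 0.000189) and -0.66 for CONT (limma adjusted p = 0.000526). PNPLA3 was thus lower in SOL, the muscle with the higher PNPLA2, MGLL and adipocyte marker levels.

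PLIN2 was higher in SOL under SHFD, at 34.2 ± 10.0 FPKM in SHFD_SOL and 17.8 ± 6.4 in SHFD_PEM, although SHFD_SOL 4 fell within the PEM range (log2 fold change 0.92, SE 0.27, limma adjusted p = 0.00722). Under CONT the log2 fold change was 0.58 (limma adjusted p = 0.0805), and it passed the threshold with libraries scaled to an equal nuclear-encoded sum (adjusted p = 0.0334) or with only the groups compared (adjusted p = 0.045). G0S2 was not called between muscles under SHFD (0.28, 95% interval -0.78 to 1.34), LHFD (0.69, 95% interval -0.37 to 1.75) or CONT (-0.85, 95% interval -1.90 to 0.21). Without LHFD_PEM 1 the LHFD difference was 1.35 and was called (adjusted p = 0.0122). ANGPTL4 was not called between muscles under any diet, though 1 leave-one-out fit called it under SHFD (adjusted p = 0.0169). That fit left out SHFD_SOL 4, the library set apart by its fibre markers. Of the 5 genes, 3 were called between muscles under SHFD, 2 under LHFD and 2 under CONT, where 51.6%, 43.8% and 50.7% of all tested genes were called, so these counts lie near the background. Adipocyte, endothelial and mitochondrial transcripts were also higher in SOL. Of the endothelial markers 10 of 10 tested were called higher in SOL under each diet. Their part in these muscle differences was not tested.

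**Figure D3:**
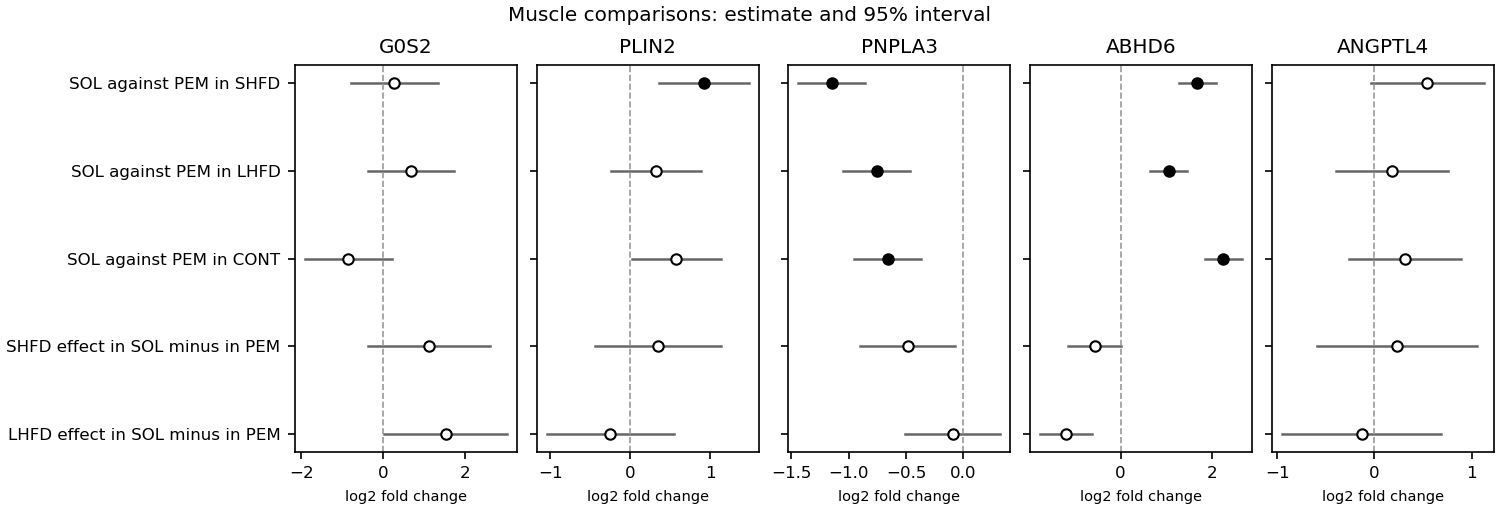
Log2 fold change (horizontal axes, log2(FPKM + 1) scale) of SOL against PEM under each diet, and how far each high-fat effect differs between muscles (rows). Points are estimates from the fit over 24 libraries, lines are 95% intervals, and filled points passed an adjusted p of 0.05. ABHD6 lies right of 0 and PNPLA3 left of 0 in all 3 muscle comparisons, and no difference between muscles in a diet effect is filled.

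Ordered by mean level, G0S2 ran from 13.7 FPKM in LHFD_PEM to 76.2 in CONT_PEM with CONT_SOL next at 43.8, and each neighbour in that order overlapped the next. PLIN2 ran from 13.5 FPKM in CONT_PEM to 34.2 in SHFD_SOL, again with every neighbouring pair of groups overlapping. The order of PNPLA3 broke once, between CONT_PEM and LHFD_PEM, and that of ABHD6 once, between CONT_PEM and LHFD_SOL. ANGPTL4, from 0.247 FPKM in LHFD_PEM to 1.49 in SHFD_SOL, had no such break.

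Levels per transcript length place the genes beside others acting at the same step. G0S2 relative to its target PNPLA2 had a median ratio of 0.423 in SHFD_PEM, 0.2 in LHFD_PEM and 4.33 in CONT_PEM. CONT_PEM was the one group with more G0S2 than PNPLA2 in all 4 libraries. In SOL, where PNPLA2 was higher, the median ratio was 0.141 in SHFD_SOL, 0.0986 in LHFD_SOL and 0.187 in CONT_SOL. PNPLA2 itself averaged 34.4 ± 8.7 FPKM in SHFD_PEM, 27.5 ± 10.2 in LHFD_PEM and 20.3 ± 11.3 in CONT_PEM, and was not called (limma adjusted p = 0.276 for SHFD and 0.468 for LHFD). LHFD_PEM 1 was apart here too, with a ratio of 2.71.

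PLIN2 made up a median 24.6% of the summed FPKM of the perilipin genes PLIN1, PLIN2, PLIN4 and an unnamed gene annotated as perilipin-3-like in SHFD_SOL, 21.6% in LHFD_SOL and 10.4% in CONT_SOL. In PEM it made up 46.5% in SHFD_PEM, 58.5% in LHFD_PEM and 37.9% in CONT_PEM. The SOL share moved with the other perilipins as well as with PLIN2. PLIN4 averaged 86.2 ± 29.4 FPKM in SHFD_SOL, 83.1 ± 10.3 in LHFD_SOL and 125 ± 29 in CONT_SOL, and was not called between diets. ABHD6 relative to MGLL, the main monoacylglycerol lipase, had a median ratio of 0.0803 (0.0652 to 0.101) in LHFD_SOL and 0.257 (0.202 to 0.298) in CONT_SOL. MGLL averaged 37.4 ± 3.5 FPKM in LHFD_SOL and 38.5 ± 3.7 in CONT_SOL (log2 fold change -0.04, limma adjusted p = 0.971). These ratios were chosen after values were seen and are given without a test.

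**Figure D4:**
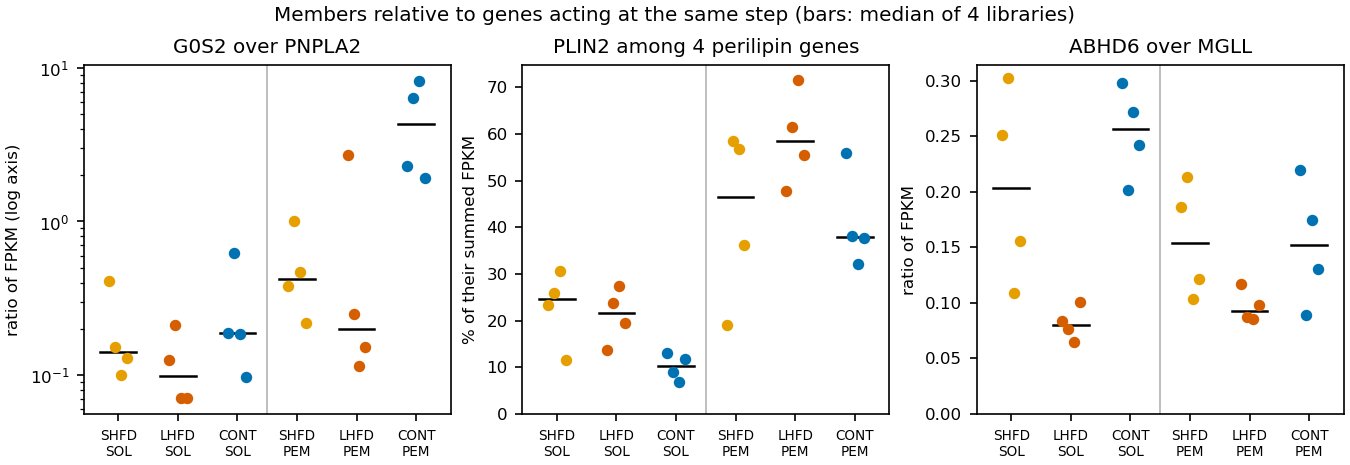
Ratios of FPKM within each library, by muscle and diet: G0S2 over PNPLA2 (log axis), PLIN2 as a percent of 4 perilipin genes, and ABHD6 over MGLL. Points are libraries and bars are medians of 4. The G0S2 ratio has a median of 4.33 in CONT_PEM and at most 0.423 in the other 5 groups, and the ABHD6 ratio has a median of 0.0803 in LHFD_SOL and 0.257 in CONT_SOL.

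Lists of other genes of the same processes were examined for the diet comparisons. Of 21 listed droplet coat and assembly genes, 11 were found by symbol and tested. RAB18, a small GTPase of the droplet surface, fell in LHFD_PEM (48.7 ± 4.4 FPKM against 74.6 ± 15.1 FPKM in CONT_PEM, log2 fold change -0.59, limma adjusted p = 0.0184), 1 of 11 where 6.94% of all tested genes were called. No other gene of the list was called in the 6 diet comparisons. The list's median log2 fold change in LHFD against CONT in PEM was -0.19, against -0.08 over all tested genes. Of 27 listed lipases and cofactors 18 were tested. PNPLA6, a lysophospholipase, fell in SHFD_SOL (3.56 ± 0.56 FPKM against 6.503 ± 0.95 FPKM in CONT_SOL, log2 fold change -0.72, limma adjusted p = 0.0157). It was the one call of that list, 1 of 18 where 0.557% of all tested genes were called. PNPLA2, MGLL, DAGLA, DAGLB and LPL were not called between diets.

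Of 20 listed PPAR targets 15 were tested. In LHFD against CONT in PEM 2 of 15 were called, both lower, where 6.94% of all tested genes were called and 536 of those 760 calls were lower. In LHFD against SHFD in PEM and in LHFD against CONT in SOL 1 of 15 was called, also lower, where 0.201% and 0.521% of all tested genes were called. CPT1A, which admits fatty acids to mitochondria, stood at 7.27 ± 2.85 FPKM in LHFD_PEM, against 19.99 ± 6.8 FPKM in SHFD_PEM and 21.2 ± 3.1 FPKM in CONT_PEM. It fell under LHFD against CONT (log2 fold change -1.47, limma adjusted p = 0.00152) and against SHFD (-1.35, limma adjusted p = 0.0153). ACSL1, which activates fatty acids with coenzyme A, fell under LHFD in SOL (94.7 ± 14.3 FPKM against 224 ± 72 FPKM in CONT_SOL, log2 fold change -1.18, limma adjusted p = 0.0369). It fell in PEM too (16.4 ± 3.1 FPKM in LHFD_PEM against 34.2 ± 7.5 FPKM in CONT_PEM, log2 fold change -1.01, limma adjusted p = 0.0186). PLIN2, also a PPAR target, had positive log2 fold changes in both comparisons, of 0.56 in SOL and 0.81 in PEM, and neither was called.

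Between muscles more of the listed genes were called, as were more genes of the whole table (51.6% of all tested genes under SHFD, 43.8% under LHFD and 50.7% under CONT). Of the droplet coat list, 7 of 11 were called higher in SOL and 1 lower under SHFD, 6 higher and 0 lower under LHFD, and 6 higher and 1 lower under CONT. PLIN1, the adipocyte droplet coat, averaged 8.41 ± 1.80 FPKM in SHFD_SOL and 0.779 ± 0.69 in SHFD_PEM, and PLIN4 averaged 86.2 ± 29.4 FPKM in SHFD_SOL and 22.6 ± 11.01 in SHFD_PEM. CIDEC, a droplet fusion protein of adipocytes, FITM2, which acts in droplet budding, and SPART, a droplet-associated protein, were the other genes among the 4 smallest p of a muscle comparison. Of the lipase list, 6 of 18 were called higher in SOL and 4 lower under SHFD, 7 and 2 under LHFD, and 8 and 3 under CONT, so the lipase counts lie near those shares. With quantile normalization the CONT counts were 5 higher and 2 lower for the droplet coat list and 7 and 5 for the lipase list. The median log2 fold change in CONT went from 0.44 to 0.27 for the droplet coat list and from 0.28 to 0.06 for the lipase list. PNPLA2 averaged 140 ± 32 FPKM in LHFD_SOL and 27.5 ± 10.2 in LHFD_PEM (log2 fold change 2.37, limma adjusted p = 9.47e-06). MGLL, PNPLA6, LPL, ABHD2, PNPLA4 and PNPLA7 were the others among the 4 smallest p, of which PNPLA4 was lower in SOL (0.613 ± 0.15 FPKM in SHFD_SOL and 2.39 ± 0.09 in SHFD_PEM). Of the PPAR targets 11 of 15 were called higher in SOL under each diet, led by CD36, FABP3, CPT2 and ACADL, and 2 were called lower under SHFD, 1 under LHFD and 3 under CONT. CPT1A was lower in SOL under CONT (log2 fold change -1.40, limma adjusted p = 5.24e-05). The PNPLA3 difference thus ran opposite to that of PNPLA2 and MGLL, and the ABHD6 difference ran the same way.

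Averages over groups were added after the values were seen. With both high-fat diets averaged and both muscles averaged, 4 of the 5 genes were called against CONT, where 12.0% of all tested genes were called. G0S2 (log2 fold change -1.87, SE 0.31, limma adjusted p = 0.000941) and ABHD6 (-0.56, SE 0.12, limma adjusted p = 0.00501) fell. By muscle, ABHD6 changed by -0.59 (SHFD) and -1.41 (LHFD) in SOL and by -0.02 and -0.21 in PEM. Its average therefore does not show a fall in both muscles. PNPLA3 (0.44, SE 0.09, limma adjusted p = 0.00278) and PLIN2 (0.59, SE 0.17, limma adjusted p = 0.023) rose. ANGPTL4 was not called (-0.11, 95% interval -0.47 to 0.24). SOL and PEM libraries, which may come from the same birds, enter this average as separate samples, so its p-values may be too small. The PLIN2 call ended without CONT_SOL 2 (adjusted p = 0.0589) or CONT_SOL 3 (adjusted p = 0.0506). Averaged over the 3 diets, ABHD6 (1.66, SE 0.11) and PLIN2 (0.61, SE 0.16) were higher and PNPLA3 (-0.86, SE 0.08) lower in SOL than in PEM, 3 of 5 called where 69.6% of all tested genes were. ANGPTL4 missed the threshold there (0.35, limma adjusted p = 0.0611) but passed it in 5 of 24 leave-one-out fits. It stayed uncalled in 5 of the 7 other settings run, with limma adjusted p of 0.0330 to 0.286 over the 7.

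Relations between the genes were examined over the 12 libraries of each muscle, 20 relations in all. PNPLA3 and ABHD6 in SOL were inversely related (Pearson r = -0.801, permutation p = 0.00172, adjusted over the 20 p = 0.0344). Spearman's rho was -0.734 (permutation p = 0.00847, adjusted p = 0.168). Without the 2 libraries farthest from the median of PNPLA3, r was -0.745, and with each diet group centred on its mean it was -0.587. The centred value was not tested. The permutations ran across diets, so all permutation p-values here also take in shifts between diets. The other 19 relations did not pass the adjustment, the nearest in PEM being that of G0S2 and PLIN2 (r = -0.654, permutation p = 0.0245, adjusted p = 0.226, rho = -0.664, permutation p = 0.0222, adjusted p = 0.168, r = -0.573 without the 2 farthest and -0.285 within diets).

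As a description across the 24 libraries, each centred on its muscle's mean, the genes most like each of the 5 were sought among 5213 genes that carry a symbol and average 5 FPKM or more. G0S2 was most like SMARCD2 (r = 0.822), RAPGEF2 (0.767) and CREG1 (0.766). PLIN2 was most like EFNB2 (0.738), KLHL40 (0.736) and C5H11ORF96 (0.721), and PNPLA3 most like SLTM (0.805), KIAA2026 (0.733) and LRRC2 (0.733). ABHD6 was most like GPAT3 (0.761), an enzyme of triglyceride synthesis, NUP205 (0.752) and RETSAT (0.752), a retinol saturase. ANGPTL4 was most like RHEB (0.739), FITM2 (0.733) and EIF5A2 (0.727). These r values were picked as the highest among those 5213 genes and were not tested. ANGPTL4 reached 1 FPKM in 5 of the 24 libraries. Centring took out the mean of each muscle, but the libraries still share their diet groups.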

How the data were processed

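The authors deposited FPKM per gene and library. Per the labels' protocols, reads were filtered with fastp, mapped with HISAT2 to GRCg6a and quantified with StringTie v1.3.3b; no role is given for DESeq2 and Cufflinks in the submitters' processing notes. How reads shared by paralogs were assigned is not stated. The row named PNPLA3 carries a KEGG annotation of PNPLA2, which has a row of its own, so the identity of the gene in that row is not certain. The symbol was used as given. Whole reads could not be recovered from low values, so precision rests on the spread between libraries.

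The test was limma 3.58.1 (R 4.3.3, variance trend) on log2(FPKM + 1), 1 mean per group over 24 libraries and 18 residual degrees of freedom, two-sided, Benjamini-Hochberg adjusted. The procedure was tested on simulated data with independent libraries and normally spread values. That run cannot speak to muscles from the same bird or to outlying libraries. Permutations numbered 100000 and used scipy 1.17.1 in Python 3.11.15. Means are ± SD.

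The genes and lists were chosen with earlier results of these data known. Named besides the 5 are listed genes called between diets, the 4 smallest p of each list between muscles, and the 3 most like genes. Alternatives were quantile normalization, an equal nuclear-encoded sum, a pseudocount of 0.1, no filter, fewer groups, a replicate block and left-out libraries.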

Additional observations from a re-analysis of the deposited data

Results flagged for a closer look

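A single library stood far from the other 3 of its group in 3 of the 30 sets of 4 values (5 genes in 6 groups), by a gap that took more of the group's range than Dixon's 95% critical value. For normally spread values, chance gives about 1 in 20 sets. The rule was applied to FPKM, which can be skewed. On the log2(FPKM + 1) scale of the tests a high library stands less far apart, so these flags depend on the scale. G0S2 in LHFD_PEM 1 was 37.8 FPKM, against 3.65 to 9.45 FPKM in the other 3, in the library that also had the group's highest macrophage, heterophil, lymphocyte and fibroblast marker sums. ABHD6 in LHFD_SOL 4 was 3.81 FPKM, against 2.70 to 2.87 FPKM in the other 3, still below every CONT_SOL library. LHFD_SOL 4 also had its group's highest slow fibre marker sum. ANGPTL4 in CONT_SOL 1 was 2.31 FPKM, against 0.537 to 0.648 FPKM in the other 3.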

How the results depend on the processing

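Of the 5 genes, those called in SHFD against CONT in PEM numbered 2, but 1 with no filter, 0 with only the groups compared and 0 to 2 with 1 library left out. In LHFD against CONT in PEM they numbered 2, but 1 with no filter, 1 without CONT_PEM 2 and LHFD_PEM 1, 0 with only the groups compared and 1 to 2 with 1 library left out. In LHFD against SHFD in SOL they numbered 1, but 0 with an equal nuclear-encoded sum, a pseudocount of 0.1, no filter or only the groups compared, and 0 to 1 with 1 library left out. The ABHD6 call of LHFD against CONT in SOL and the ABHD6 and PNPLA3 calls between muscles held in every setting run. Signs turned only for uncalled values near 0. ABHD6 in SHFD against CONT in PEM was 0.0358 with quantile normalization and -0.11 to 0.13 with 1 library left out; G0S2 in SOL against PEM over all 3 diets was -0.0202 and -0.0809 to 0.26. Left-out libraries also gave ANGPTL4 ranges of -0.0889 to 0.26 (SHFD against CONT in PEM), -0.33 to 0.13 (LHFD effect in SOL minus in PEM) and -0.19 to 0.0191 (both high-fat diets averaged), and -0.33 to 0.041 for PLIN2 in LHFD against SHFD in SOL.

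All genes called in SHFD against CONT in PEM numbered 117, but 0 with only the groups compared (fewer samples), 180 without CONT_PEM 2 and LHFD_PEM 1, and 47 to 173 with 1 library left out. For LHFD against CONT in PEM (760) the values were 69 with only the groups compared and 394 to 949 with 1 left out. LHFD against SHFD in PEM (22) gave 11 with quantile normalization, 12 with an equal nuclear-encoded sum, 10 with only the groups compared, 12 without CONT_PEM 2 and LHFD_PEM 1, and 9 to 30. SHFD against CONT in SOL (61) gave 108 with an equal nuclear-encoded sum, 40 with a pseudocount of 0.1, 35 with no filter, 3 with only the groups compared and 3 to 204. LHFD against CONT in SOL (57) gave 101 with quantile normalization, 27 with a pseudocount of 0.1 and 15 to 36. LHFD against SHFD in SOL (97) gave 41 with only the groups compared and 35 to 199. The SHFD difference between muscles (1) gave 2 with quantile normalization, 2 without CONT_PEM 2 and LHFD_PEM 1, and 1 to 2, and the LHFD difference (0) gave 2, 8 and 0 to 9. The cause was not tested. Quantile normalization set the median log2 fold change of all tested genes at -0.0489, against 0.12 as deposited, in SOL against PEM in CONT, at -0.0345 against 0.14 in LHFD, and at -0.0019 against -0.12 in SHFD against CONT in SOL.

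Replicate numbers were taken as shared names only: same-numbered SOL and PEM libraries deviated with r of -0.119 to 0.362, over 0.1 in 7 of 12 pairs (3 of 4 in SHFD, 0 of 4 in LHFD and 4 of 4 in CONT). SOL libraries correlated best with their own number in 9 of 12 cases, 1 of them in LHFD, a hint from the data and not the design. In LHFD, SOL 2, 3 and 4 correlated best with PEM 1, 2 and 3 (r = 0.242, 0.331 and 0.331). With the replicate number as a block, LHFD against CONT in PEM called 1 of the 5 genes (PNPLA3 adjusted p = 0.0555), LHFD against SHFD in PEM 9 genes in all and SHFD against CONT in SOL 23. That block joins libraries of different diets, and so of different birds, under a shared number. It therefore does not model the muscles of a bird as pairs. Depth is unknown, and ANGPTL4 and PEM ABHD6 lie near 1 FPKM, where small changes are not resolved.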

Other observations

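The gene without a symbol that the table annotates as perilipin-3-like (ENSGALG00000051148) was the second most abundant perilipin of CONT_SOL. It stood at 22.1, 30.9, 24.4 and 13.5 FPKM in LHFD_SOL, against 49.3, 39.5, 58.2 and 52.8 FPKM in CONT_SOL. The groups did not overlap, but the log2 fold change of -1.15 (SE 0.32) was not called (limma adjusted p = 0.103). With both high-fat diets and both muscles averaged against CONT, this gene was called lower (-0.65, limma adjusted p = 0.0332). In PEM its group means were 2.91 FPKM in SHFD_PEM, 1.48 FPKM in LHFD_PEM and 2.63 FPKM in CONT_PEM. By muscle, the gene changed by -0.85 (SHFD) and -1.15 (LHFD) in SOL and by 0.02 and -0.62 in PEM, none called. Its average therefore does not show a fall in both muscles. Of the other lipases, with both high-fat diets and both muscles averaged against CONT, AADAC (-0.93), PNPLA6 (-0.37) and DDHD2 (-0.31) fell and ABHD2 (0.56) rose (limma adjusted p = 0.00166, 0.00455, 0.0138 and 0.0355). These are 4 of 18 tested lipases, where 12.0% of all tested genes were called, and the DDHD2 call ended with quantile normalization (adjusted p = 0.0964). By muscle, PNPLA6 changed by -0.72 (SHFD) and -0.54 (LHFD) in SOL and by -0.13 and -0.10 in PEM. ABHD2 changed by 0.96 and -0.05 in SOL and by 0.80 and 0.52 in PEM. These 2 averages therefore do not show a change throughout. AADAC and DDHD2 were negative in each of these comparisons. Muscles that may share a bird entered as separate samples, so the p-values may be too small.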
